A study of Mus musculus with 4 samples.

Results

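The receptors for the constant part of IgG were followed in mouse lung through 6 genes, Fcgr1, Fcgr2b, Fcgr3, Fcgr4, Fcer1g and Fcgrt, chosen by name. All 6 had at least 1 probe set with a single gene symbol, 11 probe sets of the 34945 so named and 6 genes of 18193. Each of the 4 Affymetrix arrays held RNA of a lung labelled B6/J. The 2 lungs labelled wild type and the 2 labelled IKKa floxed, which carry a loxP-flanked allele of the kinase IKKα, had all been given an adenovirus encoding Cre recombinase by the intratracheal route 4 months earlier. The labels do not say which lung cells the virus reached, whether 1 or both alleles were floxed, or whether each array was a separate mouse, so each p-value speaks only of how far these 4 samples scatter, and that scatter may be technical. No group without virus was analysed here, and the transcript of the floxed gene is not analysed here.

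IgG bound to a particle or an immune complex is read by Fcγ receptors on macrophages, monocytes, neutrophils, dendritic cells and natural killer cells. Fcgr1, Fcgr3 and Fcgr4 encode activating receptors, whose surface display and signalling need the common γ chain encoded by Fcer1g, which carries an activation motif (ITAM) that recruits the kinase Syk. Fcgr2b encodes the inhibitory receptor, also found on B cells, whose ITIM recruits the lipid phosphatase encoded by Inpp5d. Fcgrt encodes the heavy chain of the neonatal Fc receptor, a relative of MHC class I that pairs with β2-microglobulin and returns IgG from endosomes to the circulation.

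Of the activating receptors, 2 rose in the IKKa floxed lungs, while the inhibitory and neonatal receptors stayed near 0. Fcgr4 and Fcgr1 rose, by 1.37 ± 0.17 and 1.04 ± 0.18 (SE, n = 2 arrays per group) on the log2(intensity + 16) scale. Fcer1g and Fcgr3 stood at 1.00 ± 0.21 and 0.69 ± 0.24 (SE, n = 2) without passing the test, while Fcgr2b stood at 0.11 ± 0.14 and Fcgrt at -0.02 ± 0.13 (SE, n = 2). So 2 of the 6 genes passed limma's test at an adjusted p under 0.05, both upward, and none fell. Of the 12735 genes tested 1.74% passed, 1.01% as higher and 0.738% as lower in the floxed lungs, and all 6 receptor genes were among those tested. The groups did not overlap for 4 of the 6, each higher in the floxed lungs, against 23.6% of all genes higher and 22.2% lower without overlap. The median log2 fold change was 0.84 over the 6 genes and 6.1e-05 over all genes, of which 50% lay above 0.

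Several facts of the whole series move with these groups. Xist stood at 22.9 and 31.8 on the wild type arrays and at 4246 and 4629 on the floxed arrays. The Y-linked Eif2s3y, Uty and Kdm5d read 109 to 530 on the wild type arrays and 0.418 to 6.14 on the floxed arrays. By these genes the wild type lungs read as male and the floxed lungs as female, so genotype and sex cannot be told apart. The 3′ to 5′ ratio of the Gapdh control probe sets was 1.10 to 1.18 in wild type and 1.44 to 1.68 in floxed lungs. Genes of lung epithelium such as Sftpc and Ager were bright on all 4 arrays, as is usual for lung RNA. None of the 8 listed passed the test, against 1.74% of all genes. Without overlap, however, 6 of the 8 were higher and 2 lower in the floxed lungs, against 23.6% and 22.2% of all genes. Of 7 heart muscle genes 5 passed as lower in the floxed lungs, and so did all 3 tested adipose genes, against 0.738% of all genes. The part of these differences in the receptor values was not tested.

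Fcgr4, the receptor of monocytes, macrophages and neutrophils for certain IgG subclasses, had deposited intensities of 75.5 and 74.5 in wild type lungs, against 259 and 185 with the floxed allele. Both floxed arrays lay far above the pair of wild type arrays, which were nearly equal. The group means were 75.0 ± 0.658 and 222 ± 52.8 (SD, n = 2), a ratio of 2.96 on the linear scale and of 2.58 once 16 is added to each intensity. The limma adjusted p was 0.0138, with a 95% interval of the log2 fold change from 0.97 to 1.77, and Fcgr4 ranked 95 of all genes by p. The gene passed whichever array was left out (1.14 to 1.60, adjusted p = 0.00437 to 0.0179). It did not pass when the filter on low genes was dropped (adjusted p = 0.0758).

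Fcgr1, the high-affinity receptor of monocytes, macrophages and dendritic cells, had 2 probe sets. The brighter, 1417876_at, gave 41.0 and 43.4 in wild type lungs against 125 and 85.2 in floxed, again without overlap and with floxed replicate 1 the highest. Its means were 42.2 ± 1.68 and 105 ± 28.5 (SD, n = 2; log2 fold change 1.04, 95% interval 0.62 to 1.46, limma adjusted p = 0.0441). The dimmer, 1436625_at, read 31.4 and 20.3 in wild type against 38.5 and 25.8, so its groups overlapped. With that probe set in place of the brighter, Fcgr1 had a log2 fold change of 0.20 (limma adjusted p = 0.687). The call of the brighter probe set was also close to the threshold, and Fcgr1 missed it without wild type replicate 1 (0.0774), wild type replicate 2 (0.0752) or floxed replicate 1 (0.0579).

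The promoters of the pair of genes that rose are shown because motifs of myeloid and interferon-responsive factors can be read in them. Each stretch holds the 250 bases before the RefSeq transcription start, 5′ to 3′ on the gene's own strand, from RefSeq for GRCm38.p6. Capitals mark matches to any of 4 motifs searched on both strands: TTCNNNGAA, the interferon-gamma activated site; GAGGAA, the core of PU.1 sites; the interferon-stimulated response element, a pair of GAAA runs spaced by 2 free bases; and the 10-letter NF-κB consensus.
Fcgr1, chr3:96293970-96294219, minus strand: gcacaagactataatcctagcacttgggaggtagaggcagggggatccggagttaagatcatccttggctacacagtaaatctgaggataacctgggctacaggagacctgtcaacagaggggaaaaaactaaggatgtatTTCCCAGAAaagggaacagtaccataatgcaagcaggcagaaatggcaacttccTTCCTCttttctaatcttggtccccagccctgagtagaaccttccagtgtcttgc
Fcgr4, chr1:171018676-171018925, plus strand: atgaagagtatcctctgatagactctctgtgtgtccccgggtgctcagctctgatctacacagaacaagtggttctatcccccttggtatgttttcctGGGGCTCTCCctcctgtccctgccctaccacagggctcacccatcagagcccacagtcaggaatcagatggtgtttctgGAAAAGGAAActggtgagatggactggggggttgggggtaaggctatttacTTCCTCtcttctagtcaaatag

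The Fcgr1 stretch held TTCCCAGAA, an interferon-gamma activated site by its letters, starting 109 bases before the start, and TTCCTC, the PU.1 core read on the other strand, 55 bases before it. The Fcgr4 stretch held the response element GAAAAGGAAA at 73 bases, the NF-κB match GGGGCTCTCC at 152 bases and the PU.1 core at 22 bases before the start. All 6 genes matched a promoter in the RefSeq table, with 2 starts for Fcgr3. Both Fcgr3 stretches held the PU.1 core and the NF-κB match GGGGTTTTCC. None of the 4 motifs was found in the stretches of Fcer1g, Fcgr2b or Fcgrt. Over all 32851 promoter stretches of that length, the interferon-gamma activated site was found in 7.02%, the PU.1 core in 23.3%, the response element in 2.98% and the NF-κB consensus in 7.25%. A match is a run of letters and not a site shown to be bound in these lungs.

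**Figure D1:**
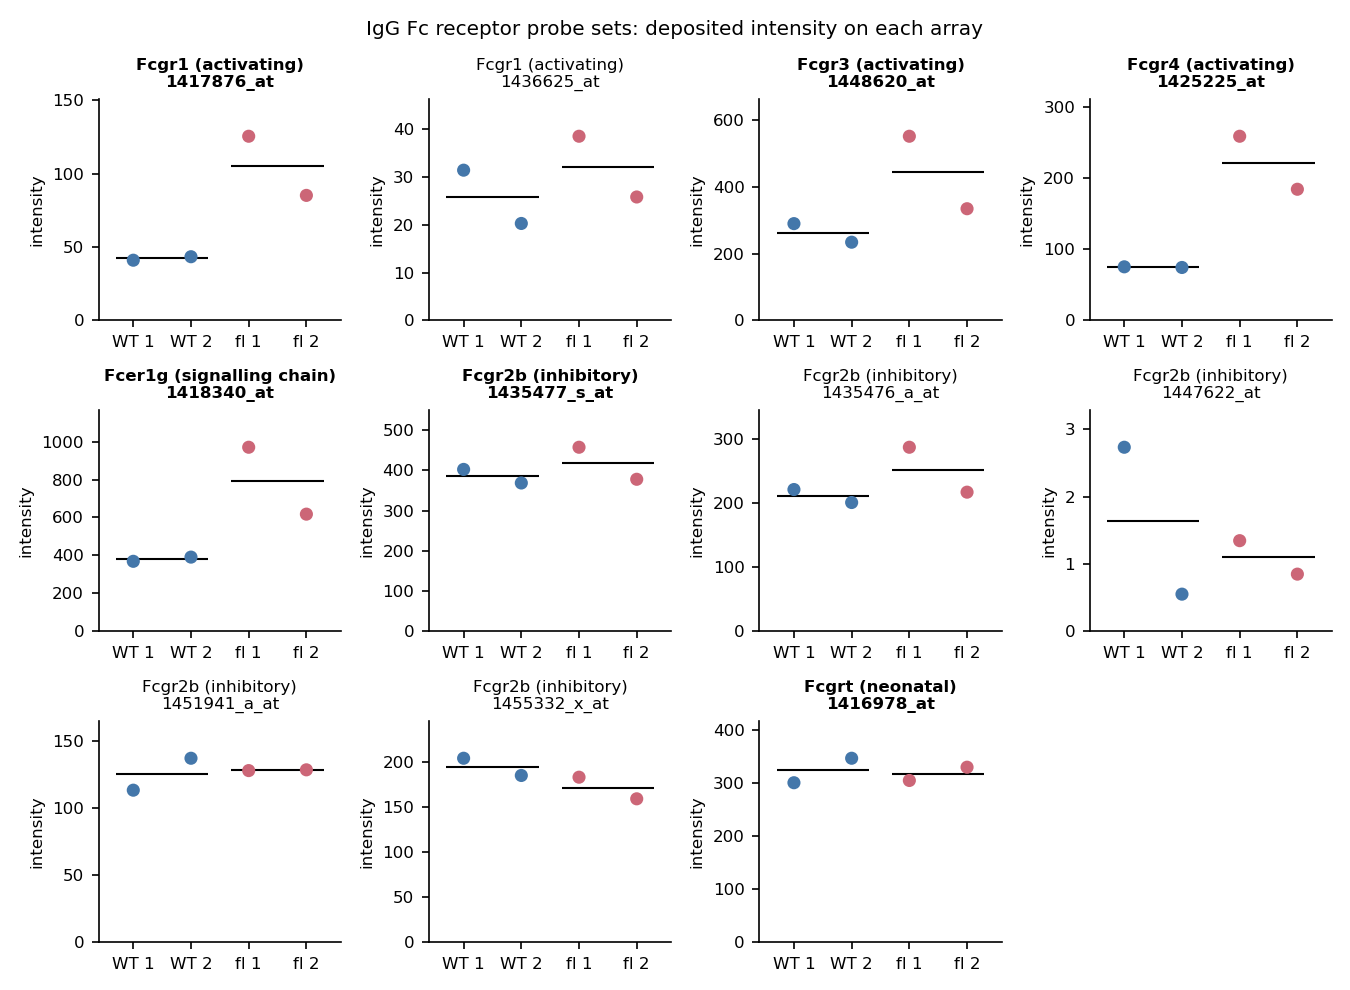
Deposited intensity (vertical axis, linear from 0) of the 11 probe sets on the arrays of wild type (WT, blue) and IKKa floxed (fl, red) lungs, with bars at the group means and bold titles for the probe set that stands for its gene. Floxed points lie above all wild type points for Fcgr3, Fcgr4, Fcer1g and the brighter Fcgr1 probe set, with floxed replicate 1 the highest in each of these.

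Fcer1g, the shared signalling chain, read 369 and 391 in wild type against 970 and 618 in floxed lungs. Both floxed arrays were above both wild type arrays, and they differed from each other by a factor of 1.57. The means were 380 ± 15.6 and 794 ± 249 (SD, n = 2; log2 fold change 1.00, 95% interval 0.50 to 1.496), and the limma adjusted p of 0.0844 missed the threshold. Without floxed replicate 2 the value was 1.32 and passed (adjusted p = 0.00896), and it also passed when the prior variance followed intensity robustly (0.0157) or the pseudocount was 64 (0.0151).

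Fcgr3, the low-affinity activating receptor that natural killer cells also carry, read 290 and 234 in wild type against 551 and 334 in floxed lungs. The groups did not overlap, but the floxed arrays differed by a factor of 1.65, the widest such gap among the 6 genes. The means were 262 ± 39.3 and 443 ± 153 (SD, n = 2; log2 fold change 0.69, 95% interval 0.13 to 1.25, limma adjusted p = 0.250). The value was 0.34 without floxed replicate 1 (adjusted p = 0.415) and 1.04 without floxed replicate 2 (0.0424), so its size rests on which of these arrays is kept.

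Fcgr2b, the inhibitory receptor, was measured by 5 probe sets, and the brightest, 1435477_s_at, stood for the gene. It read 402 and 369 in wild type against 457 and 378 in floxed lungs, so the groups overlapped. The log2 fold change of 0.11 had a 95% interval from -0.23 to 0.44 (limma adjusted p = 0.788), whose upper end lies below the lower end for Fcgr4. The other probe sets stood at 0.23 (1435476_a_at), 0.04 (1451941_a_at) and -0.17 (1455332_x_at), and the fifth, 1447622_at, was below the filter with intensities of 0.553 to 2.73. None of the 4 tested passed. The groups of 1455332_x_at did not overlap, at 205 and 185 in wild type against 184 and 160 in floxed lungs, lower in the floxed group. The suffixes _s_at and _x_at mark probe sets that can bind more than 1 transcript, and the IgG-binding domains of Fcgr2b and Fcgr3 are close relatives, so signal shared between these genes was not resolved here.

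Fcgrt, which protects IgG from breakdown in endothelium and macrophages, read 301 and 347 in wild type against 305 and 330 in floxed lungs. The floxed values lay within the wild type range. Its log2 fold change of -0.02 had a 95% interval from -0.34 to 0.29 (limma adjusted p = 0.957). B2m, which encodes its β2-microglobulin partner and that of all MHC class I heavy chains, read 7706 and 6608 in wild type against 11166 and 9619 (0.54 ± 0.14 SE, adjusted p = 0.152).

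**Figure D2:**
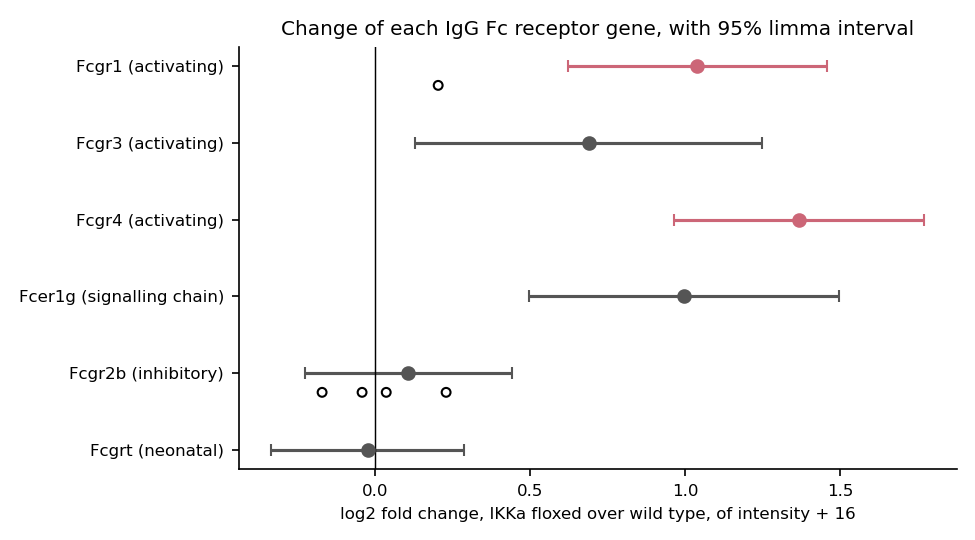
Log2 fold change of IKKa floxed over wild type lungs (horizontal axis, intensity + 16) for each of the 6 genes, with bars for limma's 95% interval, red where the adjusted p was under 0.05, and open circles for further probe sets without an interval. Fcgr4 and Fcgr1 are the red points at 1.37 and 1.04, while Fcgr2b and Fcgrt and the open circles lie near 0.

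Whether activating and inhibitory receptors moved alike was asked within each array, as the log2 value of each activating gene minus that of Fcgr2b, a difference from which array scaling largely cancels. That difference was higher in the floxed lungs for all 4 genes compared. For Fcgr4 it was -2.19 and -2.09 in wild type against -0.78 and -0.97 in floxed lungs, a shift of 1.26 (SD within groups 0.11, n = 2). For Fcgr1 it was -2.87 and -2.69 against -1.74 and -1.96, a shift of 0.93 (SD 0.14, n = 2). For Fcer1g the shift was 0.89 (SD 0.21, n = 2), and for Fcgr3 it was 0.58 (SD 0.23, n = 2), from -0.45 and -0.62 to 0.26 and -0.17.

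In every one of these 4 differences both floxed arrays lay above both wild type arrays. The exact permutation test of 2 against 2 arrays, two-sided, gave p = 0.333 for each, which is the smallest it can give here, so that test cannot take any of the pairs past a threshold of 0.05, before or after adjustment over the 4. The direction was the same against each of the 5 Fcgr2b probe sets, when the shift ranged from 1.14 to 1.54 for Fcgr4, from 0.81 to 1.21 for Fcgr1, from 0.77 to 1.17 for Fcer1g and from 0.46 to 0.86 for Fcgr3. It was also the same whichever array was left out, with the lowest shift 1.17 for Fcgr4 and 0.37 for Fcgr3. With the dimmer Fcgr1 probe set, the Fcgr1 shift was 0.097 (SD 0.14, n = 2), less than the spread within groups, so the shift of Fcgr1 rests on the brighter probe set. This setting was added after the data were seen.

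**Figure D3:**
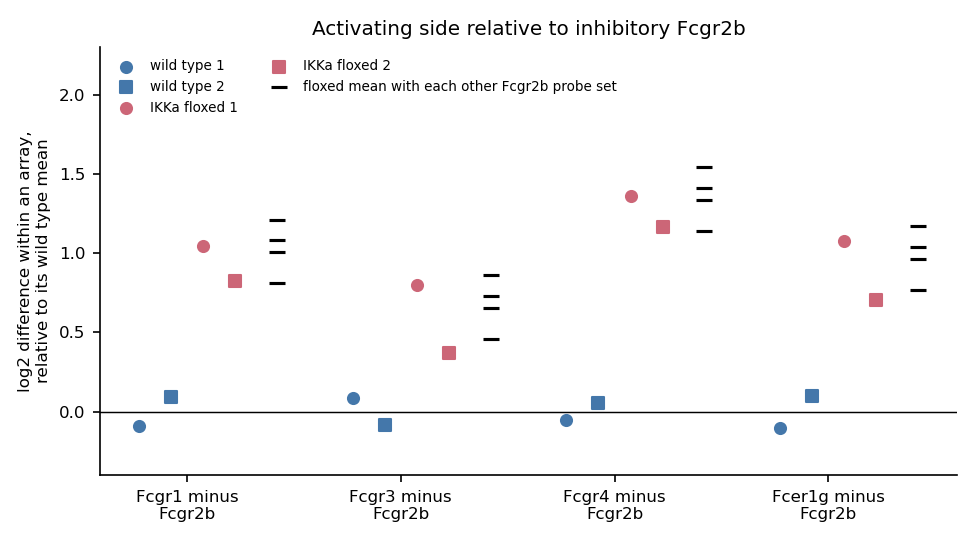
Log2 value of each activating gene minus that of Fcgr2b within an array (vertical axis, relative to the wild type mean of that difference) for the wild type (blue) and IKKa floxed (red) arrays, replicate 1 as circles and replicate 2 as squares, and dashes for the floxed mean with each other Fcgr2b probe set. Red points lie above blue points for all 4 genes, with shifts of 1.26 for Fcgr4, 0.93 for Fcgr1, 0.89 for Fcer1g and 0.58 for Fcgr3.

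The activating genes were also compared with each other, in 6 pairs. Fcgr4 minus Fcgr1 went from 0.68 and 0.61 in wild type to 0.96 and 0.99 in the floxed lungs, a shift of 0.33 (SD 0.039, n = 2). Fcgr4 minus Fcgr3 shifted by 0.68 (SD 0.18), and Fcgr4 minus Fcer1g by 0.37 (SD 0.10). Fcgr1 minus Fcgr3 shifted by 0.35 (SD 0.20) and Fcgr3 minus Fcer1g by -0.31 (SD 0.19), so Fcgr3 lay about as far from the others below as Fcgr4 did above. By contrast, Fcgr1 minus Fcer1g shifted by 0.043 (SD 0.078), less than the spread within groups, and of these only Fcgr1 passed its own test. None of these differences can pass an exact test with 2 arrays a group.

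Likeness of pattern was measured as the distance between log2 values over the 4 arrays, each gene centred on its own mean, as a description with no test. Among 12734 other genes, the 1 nearest to Fcgr1 was Fcer1g (distance 0.118), followed by Clec7a, the β-glucan receptor Dectin-1, and Ctss, the lysosomal protease cathepsin S. The nearest to Fcer1g was Fcgr1, then Clec7a and Lst1. Nearest to Fcgr4 were AW112010 (0.032), the cell cycle inhibitor Cdkn1a (0.056) and Aif1, a macrophage actin-binding protein (0.092). AW112010 read 1406 and 1398 in wild type against 4325 and 3053 in floxed lungs, close to the Fcgr4 profile in relative terms. Nearest to Fcgr3 were Cxcr6, a chemokine receptor of T cells and natural killer T cells, the granule protease Gzma and Ms4a7. Those of Fcgr2b were Gpr89, Tmppe and Pklr, and those of Fcgrt were Mmp17, Emd and Gtpbp8, whose log2 fold changes lay between -0.04 and 0.12, each smaller than its SE.

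Of the listed signalling genes none passed, though most stood above 0. On the activating side, 0 of 13 tested genes passed in either direction, against 1.74% of all genes, and 11 lay above 0, against 50% (median 0.41). Without overlap, 11 were higher and 1 lower in the floxed lungs, against 23.6% and 22.2% of all genes. Lcp2, the adaptor SLP-76, stood at 0.46 ± 0.12 SE (limma adjusted p = 0.142) and Vav1, an exchange factor for Rac, at 0.41 ± 0.12 SE (0.189). Rac2, the Rac of blood cells, read 60.2 and 101 in wild type against 163 and 116 in floxed lungs (0.70 ± 0.24 SE, adjusted p = 0.241). Pik3cd, a catalytic subunit of phosphoinositide 3-kinase, lay the other way, at 3220 and 2860 against 1888 and 2405 (-0.51 ± 0.16 SE, adjusted p = 0.207), and Syk stood at 0.18 ± 0.12 SE (0.549).

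On the inhibitory side 0 of 8 passed, against 1.74% of all genes, and 7 lay above 0, against 50% (median 0.12). Without overlap, 3 were higher and 1 lower in the floxed lungs, against 23.6% and 22.2% of all genes. Inpp5d, the phosphatase SHIP-1 that Fcgr2b recruits, read 215 and 170 in wild type against 254 and 288 in floxed lungs (0.47 ± 0.15 SE, limma adjusted p = 0.231). Pag1, a membrane adaptor that binds the kinase Csk, stood at 0.26 ± 0.13 SE, the phosphatase Ptpn6 at 0.23 ± 0.15 SE and Csk itself at 0.14 ± 0.15 SE (adjusted p = 0.451, 0.542 and 0.733). Fcgr2b at 0.11 thus lay below its own phosphatase in log2 fold change, but neither passed.

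Among partners and other antibody receptors, 0 of 9 passed and 3 lay above 0, against 1.74% and 50% of all genes (median -0.07). Beside B2m, Clec4a2, an inhibitory lectin receptor, stood at 0.44 ± 0.13 SE and Fcrls, an Fc receptor-like gene of macrophages, at -0.52 ± 0.13 SE (limma adjusted p = 0.195 and 0.132). Fcmr, the IgM receptor, was at -0.26 ± 0.19 SE, with overlapping groups. The 1 measured gene of the IgG heavy chains, Ighg3, read 30.3 and 38.8 in wild type against 38.1 and 52.9 in floxed lungs (0.28 ± 0.16 SE, adjusted p = 0.511), so the ligand of these receptors was seen only through a dim gene with overlapping groups.

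Of 7 transcription factors known to act on Fc receptor genes, 1 rose and none fell, against 1.01% and 0.738% of all genes (median 0.18). Irf1, an interferon-induced activator, went from 767 and 819 to 1576 and 1317 (0.85 ± 0.14 SE, limma adjusted p = 0.0379). Irf8, a myeloid factor, stood at 0.81 ± 0.16 SE (0.0669), Spi1, which encodes PU.1, at 0.47 ± 0.19 SE (0.327) and Cebpa at -0.16 ± 0.12 SE (0.610). Without overlap, 3 of the 7 were higher, Irf1, Irf8 and Spi1, and 1 was lower, Cebpa, against 23.6% and 22.2% of all genes. Cebpa read 429 and 414 in wild type against 364 and 388 in floxed lungs. Spi1 was dim at 23.96 and 42.4 in wild type against 50.9 and 51.0.

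Other receptors of myeloid cells that signal through ITAM or ITIM motifs included 3 that rose, of 16 tested, against 1.01% of all genes. None fell, and 15 of the 16 lay above 0, against 50% of all genes (median 0.49). Clec7a went from 735 and 725 to 1984 and 1318 (1.13 ± 0.20 SE, limma adjusted p = 0.0474), and Trem2, a lipid receptor of macrophages that signals through Tyrobp, from 16.8 and 6.97 to 44.3 and 41.2 (1.10 ± 0.18 SE, 0.0418). Both wild type values of Trem2 lay below the filter intensity of 20.4, so Trem2 was tested only because its floxed values were higher. The third, Lair1, is an inhibitory collagen receptor and rose by 0.71 ± 0.12 SE (0.0462), so not every inhibitory receptor stayed near 0 as Fcgr2b did. Tyrobp, the adaptor DAP12 with the same role as the γ chain, read 1053 and 1077 against 1774 and 1300 (0.51 ± 0.17 SE, 0.239), below the 1.00 of Fcer1g.

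**Figure D4:**
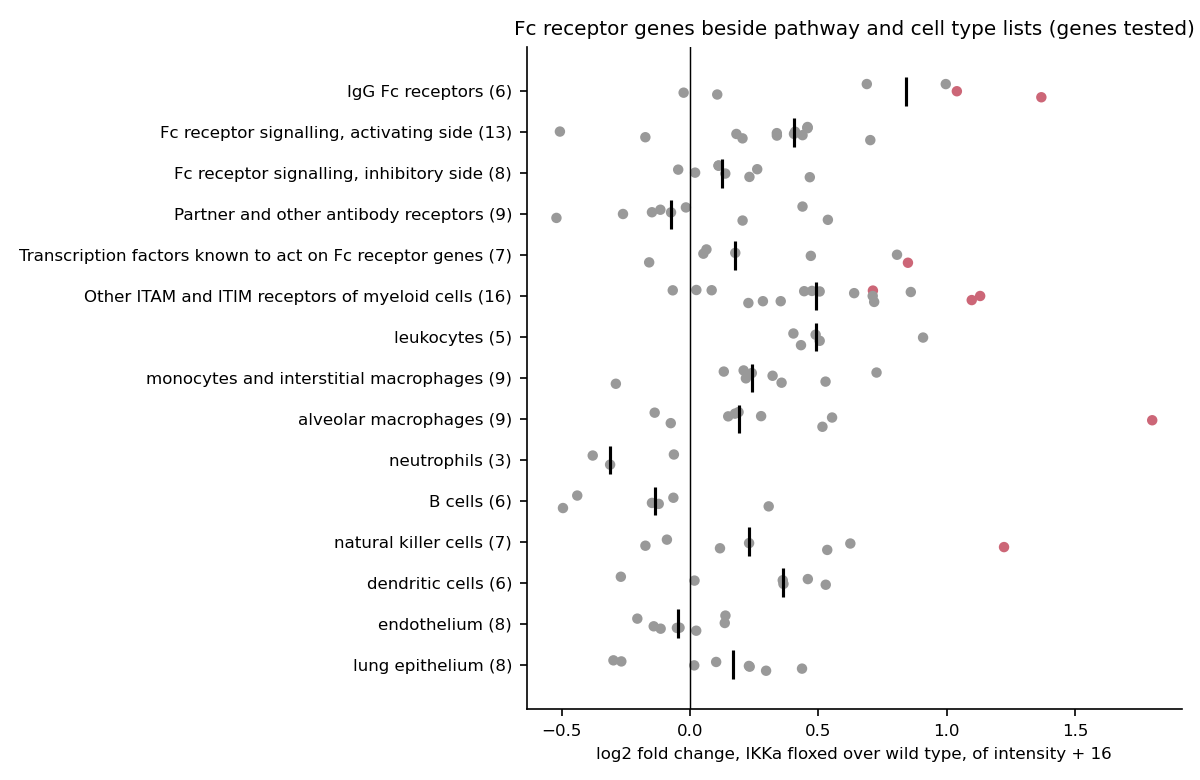
Log2 fold change (horizontal axis, IKKa floxed over wild type, intensity + 16) of each tested gene in the IgG Fc receptor set and in the pathway and marker lists with at least 3 tested genes, heart muscle and adipose left out; red points had an adjusted p under 0.05, black ticks are medians, and brackets give the genes tested. The Fc receptor median of 0.84 lies to the right of the leukocyte median of 0.49 and the monocyte and interstitial macrophage median of 0.24.

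Few markers of the cells that carry these receptors passed the test, while the summed intensity of some lists was higher in the floxed lungs. In whole lung, more cells of a type and more RNA per cell cannot be told apart. The 5 pan-leukocyte genes lay above 0 with no overlap between groups, against 50% and 23.6% of all genes. None of them passed, against 1.74% of all genes. Their summed intensity was 4372 and 4031 in wild type against 6830 and 5847 in floxed lungs, a ratio of 1.51. Among 9 monocyte and interstitial macrophage genes 0 passed and 8 lay above 0, against 1.74% and 50% of all genes (sum 15295 and 15903 against 19280 and 17491, ratio 1.18). Of these, 7 were higher and 0 lower without overlap, against 23.6% and 22.2% of all genes. Csf1r, the receptor that defines the mononuclear phagocytes, stood at 0.21 ± 0.12 SE and Cd68, a lysosomal protein of macrophages, at 0.73 ± 0.16 SE (limma adjusted p = 0.486 and 0.0986). Of 9 alveolar macrophage genes 1 rose, against 1.01% of all genes, the scavenger receptor Marco (1.80 ± 0.13 SE, limma adjusted p = 0.00223). Itgax stood at 0.52 ± 0.13 SE (limma adjusted p = 0.124) and Siglecf and Pparg at 0.18 and 0.19, each higher without overlap. Cidec and Mrc1 stood at -0.14 and -0.07, both lower without overlap. Of the 9 genes, 5 were higher and 2 lower without overlap, against 23.6% and 22.2% of all genes. The list's median was 0.19, and its sum ratio of 1.41 is carried mostly by Chil3, a chitinase-like protein of these cells (4742 and 5076 in wild type, 7224 and 7193 in floxed lungs, 0.55 ± 0.12 SE, limma adjusted p = 0.0893). Cidec and Mrc1 were chosen for mention after their values were seen.

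Other carriers gave a mixed picture. The natural killer list held 1 gene of 7 that rose, against 1.01% of all genes, Nkg7 (1.22 ± 0.18 SE, limma adjusted p = 0.0261). Of the 7, 5 lay above 0, against 50% of all genes (sum 616 and 505 against 1035 and 708, ratio 1.55). Among them, 3 were higher and 0 lower without overlap, against 23.6% and 22.2% of all genes. The 3 were Nkg7, Gzma (0.62 ± 0.22 SE) and Klre1 (0.53 ± 0.24 SE), of which only Nkg7 passed. Ncr1, a defining receptor of these cells, stood at -0.09 ± 0.19 SE with overlapping groups, but it was dim, near the filter intensity of 20.4. Klre1 was also dim, at 30.2 and 35.7 in wild type against 75.6 and 38.8 in floxed lungs. Prf1, of the same list, read 47.2 and 36.2 against 38.7 and 31.4 (-0.17 ± 0.15 SE), with overlapping groups. Among 6 dendritic cell genes 0 passed and 5 lay above 0, against 1.74% and 50% of all genes (median 0.36, sum ratio 1.07). None of 3 neutrophil genes passed or lay above 0, against 1.74% and 50% of all genes (sum 738 and 991 against 916 and 519). Of 6 B cell genes none passed and 1 lay above 0, against the same shares (median -0.13). Of mast cell and basophil genes, only Kit was tested, at 0.05. Endothelial genes, the other main site of Fcgrt, stood near 0 (0 of 8 passed, against 1.74% of all genes, median -0.05, sum ratio 0.996). The part of cell makeup in the receptor changes was not tested.

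The receptors were also set against a marker of all leukocytes within each array, which takes the same amount from every receptor and so leaves their order as it was. Relative to Ptprc, which encodes CD45, Fcgr4 shifted by 0.94, Fcgr1 by 0.61, Fcer1g by 0.56 and Fcgr3 by 0.26, while Fcgr2b shifted by -0.33 and Fcgrt by -0.46. Relative to Csf1r the shifts were 1.16 for Fcgr4, 0.83 for Fcgr1, 0.79 for Fcer1g, 0.48 for Fcgr3, -0.10 for Fcgr2b and -0.23 for Fcgrt. The groups of Fcgr3 overlapped against Ptprc (-1.83 and -2.20 in wild type, -1.495 and -2.02 in floxed lungs) and against Csf1r (-3.06 and -3.36, then -2.39 and -3.07), as did those of Fcgr2b against Csf1r. The groups of Fcgr4 did not overlap against Ptprc (-3.57 and -3.67, then -2.54 and -2.82) or Csf1r, and nor did those of Fcgr1, Fcer1g and Fcgrt. Both reference genes were picked for these differences after the values had been seen.

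Of the 6 genes 4 lie close together on chromosome 1. In RefSeq order (GRCm38.p6), Fcgr2b, Fcgr4 and Fcgr3 are direct neighbours among protein coding genes, and Fcer1g follows after 7 others. Fcgr1 is on chromosome 3 and Fcgrt on chromosome 7. The difference between Fcgr4 and Fcgr2b is therefore 1 between adjacent genes. None of 16 other genes tested between and up to 10 genes beyond these 4 passed, against 1.74% of all genes (median 0.04, range -0.74 to 0.29). Without overlap, 3 of the 16 were higher and 3 lower, against 23.6% and 22.2% of all genes. Of the 4 tested between Fcgr3 and Fcer1g, Pcp4l1 stood at -0.74 ± 0.16 SE (limma adjusted p = 0.0928), Cfap126, a gene of motile cilia, at -0.47 ± 0.15 SE (0.221), Sdhc at 0.03 and Tomm40l at 0.13. None of 7 tested neighbours of Fcgr1 (median 0.08, range -0.31 to 0.21) passed, against 1.74% of all genes. Nor did any of 13 of Fcgrt (median 0.07, range -0.33 to 0.27).

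**Figure D5:**
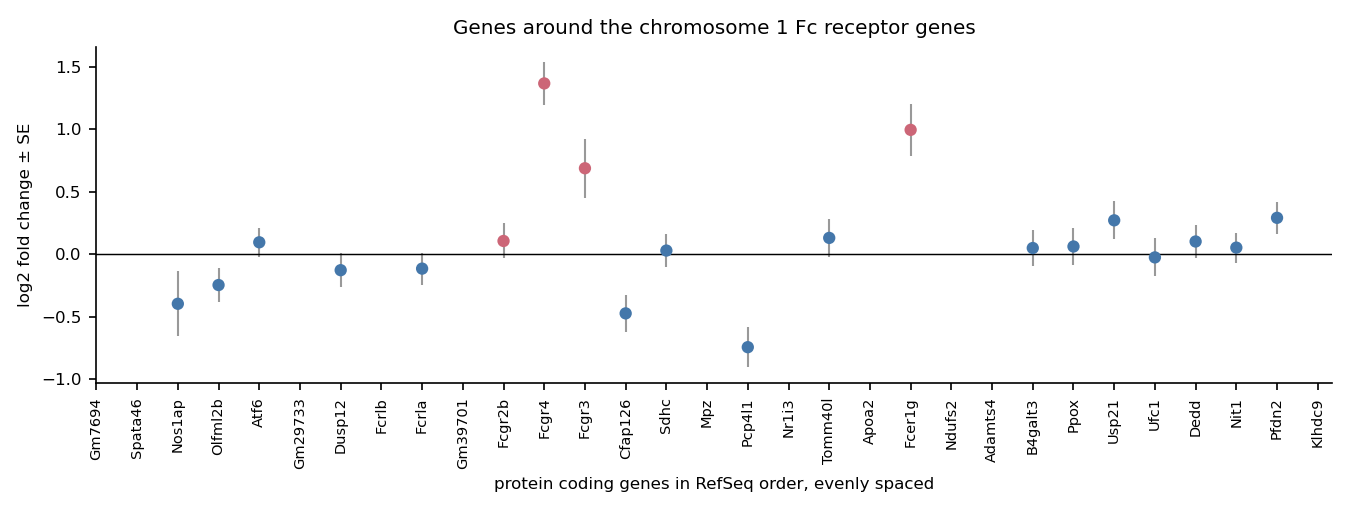
Log2 fold change ± SE (vertical axis, IKKa floxed over wild type, n = 2 arrays per group) of protein coding genes in RefSeq order around the chromosome 1 Fc receptor genes, evenly spaced, with receptor genes in red, other genes in blue and no point for genes that were not tested. Fcgr4 at 1.37, Fcer1g at 1.00 and Fcgr3 at 0.69 stand above the blue points, which range from -0.74 to 0.29, and Fcgr2b at 0.11 lies within that range.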

How the data were processed

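The deposited table gives 1 linear intensity per probe set and array, made with Affymetrix Expression Console, per the submitters' processing notes. Its version, the signal algorithm and a genome build are not given in the sources used. The mean with 2% trimmed from each end was 150.001 on every array, so the authors' deposited intensities were already scaled. Of 45101 probe sets, those with exactly 1 symbol in the platform annotation were kept, and 34741 matched NCBI RefSeq by Entrez number. A gene was its probe set of highest mean. Values were log2(intensity + 16). Array medians differed by at most 0.0646, under the limit of 0.1 set for quantile normalization. Genes below the 30th percentile of mean log2 level (intensity 20.4) were left out. Groups, from sample titles, were tested by moderated linear models (lmFit and eBayes of limma 3.58.1, R 4.3.3; two-sided, Benjamini-Hochberg over 12735 genes), tested on simulated data. Of these genes 222 passed, 128 higher and 94 lower. In the simulated data 6.86% of 1.5-fold and 72.0% of 2-fold changes passed, so a gene that did not pass may still differ. Differences between genes were compared by exact permutation.

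The genes and lists were chosen with earlier results of these data known. Named beside the 6 receptor genes were called list members (up to 8), up to 4 more per list by moderated t, called or intervening neighbours, and the 3 nearest patterns. Syk, Csk, Ncr1, Siglecf, Pparg, Kit, Cebpa, Csf1r, Sftpc and Ager were named for their role. Alternatives changed the pseudocount, filter, scaling, prior, probe sets, block and arrays. No protein sequences were used.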

Additional observations from a re-analysis of the deposited data

How the results depend on the processing

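Every alternative kept a positive sign for Fcgr1, Fcgr3, Fcgr4, Fcer1g and for the shift of each of these against Fcgr2b; calls moved. With a pseudocount of 1, 105 genes passed in place of 222, Fcgr1 was 1.27 (limma adjusted p = 0.0899), and the shifts against Fcgr2b were 1.16 for Fcgr1 and 1.42 for Fcgr4. With 64, 360 passed, Fcer1g was 0.92 (0.0151), and those shifts were 0.57 and 0.93. Without the filter, which adds dim genes to the adjustment, 69 passed, and Fcgr1 at 1.04 (0.156) and Fcgr4 at 1.37 (0.0758) did not. With a trended, robust prior 387 passed, Fcer1g among them at 1.00 (0.0157). With the mean of a gene's probe sets Fcgr1 was 0.74 (0.0960) and its shift 0.67, and with every probe set tested on its own Fcgr1 was 1.04 (0.0825). Under quantile normalization 200 genes passed, and no call on the 6 genes changed. With the replicate number as a block (replicate block) 189 genes passed and Fcgr1 at 1.04 did not (0.0564). No other call on the 6 genes changed under it, and same-numbered arrays did not deviate together (r = -0.00058 across genes), so the numbers were not taken as pairs.

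Alternatives added after seeing the data replaced probe sets. The other Fcgr1 probe set gave 0.20 (0.687) and a shift against Fcgr2b of 0.097. Against 1455332_x_at of Fcgr2b the shifts were 1.21 for Fcgr1, 0.86 for Fcgr3, 1.54 for Fcgr4 and 1.17 for Fcer1g. Against the dim 1447622_at they were 1.08 for Fcgr1 and 1.41 for Fcgr4, and against 1435476_a_at 1.14 for Fcgr4.

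Leaving out 1 array at a time, the lone array of a group being assumed to vary like the others, 146 (without wild type replicate 2) to 248 genes passed. Log2 fold changes ranged from 0.80 to 1.28 for Fcgr1, 0.34 to 1.04 for Fcgr3, 1.14 to 1.60 for Fcgr4, 0.68 to 1.32 for Fcer1g, -0.026 to 0.24 for Fcgr2b and -0.12 to 0.073 for Fcgrt. Fcgr2b was negative without floxed replicate 1, and Fcgrt was positive without wild type replicate 2 (0.073) or floxed replicate 1 (0.029). The causes were not tested. With 2 arrays a group, the number of arrays limits the precision, and calls of genes near the filter intensity rest on few units of signal.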
